A study of Mus musculus with 17 samples.

Results

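The mRNA levels of the receptors for the colony-stimulating factors, and of the ligand Csf1, were followed in sorted macrophages of the mouse synovium, the soft lining of the joint. The group holds 6 genes (Csf1, Csf1r, Csf2ra, Csf2rb, Csf2rb2 and Csf3r), taken by symbol from a count table of 22859 genes, and all 6 passed the filter on low counts. All mice were adults lacking Fcgr2b, the inhibitory receptor for IgG immune complexes (Fcgr2b-KO), so every group, controls included, carried this deletion. The macrophages came from mice labelled as controls or from mice killed 8 hours after an intravenous injection of immune complexes (IC) made of ovalbumin and rabbit antibody against it. A subset expressing LYVE1 and CX3CR1 (LYVE1+CX3CR1+), an MHCII+ subset without CD11c (MHCII+CD11c-) and an MHCII+ subset with CD11c (MHCII+CD11c+) were sorted after collagenase digestion. Each subset and treatment had 3 libraries, and only the MHCII+CD11c+ subset after IC had fewer, with 2. The sources used here do not describe what the controls received or say whether a library pooled several mice, so the p-values measure the spread between libraries.

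CSF1, made by stromal cells and by other cells of the joint, acts through CSF1R, a receptor tyrosine kinase on which most tissue macrophages depend for survival. GM-CSF acts through a heterodimer of an alpha chain that binds it, encoded by Csf2ra, and a common beta chain, encoded by Csf2rb, that signals through JAK2 and STAT5 and is shared with the receptors for IL-3 and IL-5. Mice carry a further beta chain gene, Csf2rb2, whose product serves the IL-3 receptor only. G-CSF acts through a receptor encoded by Csf3r, best known in neutrophils and their precursors. GM-CSF and CSF1 are both known for their part in inflammatory arthritis.

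The libraries held between 2301913 and 7248939 assigned counts, so that 3 counts corresponded to between 0.414 and 1.303 CPM, a library's counts scaled to a common total and the unit in which levels are given here. At an equal depth, 11547 to 13844 genes were detected in the LYVE1+CX3CR1+ libraries after IC and 13818 to 17693 in the others. Counts were assigned to Fcgr2b itself in all 17 libraries (167 to 1168 counts), and the deleted part of the gene was not separated from the rest. The labelled cell types were checked against their markers. Itgax, which encodes CD11c, lay between 275 and 443 CPM in the MHCII+CD11c+ libraries and between 8.24 and 16.0 CPM in the MHCII+CD11c- libraries. Summed MHCII genes (H2-Ab1, H2-Aa, H2-Eb1, Cd74) lay at or above 11130 CPM in both MHCII+ subsets and at or below 156 CPM in LYVE1+CX3CR1+ macrophages. The 5 LYVE1+ subset markers (Lyve1, Timd4, Folr2, Cx3cr1, Vsig4) separated the subsets less. They summed to 3552 to 4385 CPM in LYVE1+CX3CR1+ controls and 5560 to 6516 CPM after IC. In MHCII+CD11c- macrophages they summed to 988 to 1721 CPM in controls and 1817 to 3293 CPM after IC. In MHCII+CD11c+ macrophages they summed to at most 581 CPM. All 7 general macrophage markers were detected in every library, but their sum was 1087 to 2925 CPM in MHCII+CD11c+ controls and 6184 to 7902 CPM in the controls of the other subsets.

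The 2 beta chain genes are near-identical neighbours, and this bears on every value given for them. In GRCm38 (mm10) with GENCODE M21, Csf2rb lies at chr15:78325752-78353847 on the plus strand and Csf2rb2 at chr15:78282507-78305721 on the minus strand. Their coding sequences of 2688 and 2634 bases matched at 2503 of 2628 aligned bases (95.2%), and the longest identical run was 242 bases. Of all windows of 150 bases in the Csf2rb coding sequence, 6.50% occurred unchanged in Csf2rb2. The 150-base stretch in which the copies differ most is shown to make clear what a read can use to separate them. It is coding sequence joined across introns, from bases 300 to 449 of the Csf2rb coding sequence (chr15:78338889-78340492) and 303 to 452 of that of Csf2rb2 (chr15:78292817-78294442). The capitals mark the 25 positions that differ.
Csf2rb: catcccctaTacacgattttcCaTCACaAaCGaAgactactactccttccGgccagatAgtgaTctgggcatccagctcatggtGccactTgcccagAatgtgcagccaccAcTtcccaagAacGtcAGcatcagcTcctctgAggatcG
Csf2rb2: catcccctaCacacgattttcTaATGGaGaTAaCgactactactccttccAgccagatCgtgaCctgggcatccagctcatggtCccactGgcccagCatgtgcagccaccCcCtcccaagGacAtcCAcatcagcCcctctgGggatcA
A read from this stretch can be assigned to 1 of the 2 genes, and one from an identical run cannot. How the authors' counting treated reads that match both copies is not given in the sources used here, so the split between the genes is less certain than their sum.

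Csf1r, the receptor for CSF1, was lowest in MHCII+CD11c+ macrophages and did not separate the other subsets. The gene lies at chr18:61100598-61132149 on the plus strand, in 24 exon blocks. In controls its level was 2810.4, 2374 and 3361 CPM in the 3 LYVE1+CX3CR1+ libraries. It was 3234, 1725 and 2693 CPM in MHCII+CD11c- macrophages, so these groups overlapped. In MHCII+CD11c+ macrophages it was 706, 714 and 669.8 CPM, below every library of the other subsets and with little spread. The difference between the LYVE1+CX3CR1+ and the MHCII+CD11c+ controls was 4.09-fold (2849 ± 494 against 696 ± 23.4 CPM, SD, n = 3 each), a log2 fold change of 2.03 ± 0.19 (SE) with an adjusted p of 8.40e-08 in edgeR's quasi-likelihood test with Benjamini-Hochberg adjustment over 15272 genes. The MHCII+CD11c+ level was also below that of MHCII+CD11c- controls (2551 ± 765 CPM), by 3.66-fold, with a log2 fold change of -1.87 ± 0.19 and an adjusted p of 9.49e-07 in the same edgeR test. LYVE1+CX3CR1+ and MHCII+CD11c- controls were not separated, and the interval of their log2 difference ran from -0.23 to 0.54. All 7 general macrophage markers were also lower in MHCII+CD11c+ controls than in either other subset, so Csf1r moved with them. Fewer cells of a type and less RNA per cell cannot be told apart in such bulk libraries, and the part of the marker difference in the Csf1r difference was not tested. Exons of Csf1r share 873 bases with Hmgxb3 on the opposite strand, which averaged 26.4 to 52.0 CPM in the 6 groups.

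After IC, Csf1r stood at 2729, 2256 and 2937 CPM in LYVE1+CX3CR1+ and at 2625, 2108 and 1958 CPM in MHCII+CD11c- macrophages. In the 2 MHCII+CD11c+ libraries it was 1181 and 1127 CPM, above all 3 controls of that subset and still below all other libraries. Csf1r remained lower in MHCII+CD11c+ than in LYVE1+CX3CR1+ macrophages after IC, with a log2 difference between LYVE1+CX3CR1+ and MHCII+CD11c+ of 1.19 ± 0.22 and an edgeR adjusted p of 0.000561. Against MHCII+CD11c- macrophages the log2 difference was -0.95 ± 0.21 with an edgeR adjusted p of 0.00953. This last call was lost without either MHCII+CD11c+ IC library, where the log2 difference was -0.96 (edgeR adjusted p 0.0843) without replicate 1 and -0.91 (edgeR adjusted p 0.186) without replicate 2. Each such fit, here and for the genes that follow, leaves 1 MHCII+CD11c+ IC library, which is assumed to vary like the other groups.

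The ligand was scarce. Csf1, at chr3:107741048-107760469 on the minus strand, had 7 to 117 counts in any library. Control levels were 9.76, 10.8 and 7.40 CPM in LYVE1+CX3CR1+ and 6.82, 6.19 and 2.34 CPM in MHCII+CD11c- macrophages, without overlap. The MHCII+CD11c+ controls read 2.55, 21.7 and 3.03 CPM, so that their mean of 9.10 ± 10.9 CPM (SD, n = 3) came mostly from replicate 2. Fibroblasts are a source of CSF1, and the 8 fibroblast markers summed to 38.3 CPM in that library, 219.5 CPM in replicate 1 and 8.70 CPM in replicate 3. In replicate 2 the endothelial markers (63.7 against 31.1 and 15.9 CPM in replicates 1 and 3), the LYVE1+ subset markers (581 against 83.6 and 57.5 CPM) and the macrophage markers (2925 against 1087 and 1172 CPM) also stood highest, and their part in the Csf1 level was not tested. After IC the levels were 3.22, 5.35 and 6.64 CPM in LYVE1+CX3CR1+ macrophages, below their 3 controls, and 7.98, 10.5 and 2.20 CPM in MHCII+CD11c- macrophages. The 2 MHCII+CD11c+ libraries had 8.67 and 9.16 CPM. No comparison called Csf1, and the intervals were wide. For IC against control in LYVE1+CX3CR1+ macrophages the log2 change was -0.88 (95% interval -2.48 to 0.71).

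Csf2ra, the GM-CSF binding chain, had the opposite order to Csf1r. The gene lies at chr19:61223957-61228429 on the minus strand. Its control levels were 133, 202 and 139 CPM in LYVE1+CX3CR1+, 177, 218 and 215 CPM in MHCII+CD11c- and 452, 334 and 440.2 CPM in MHCII+CD11c+ macrophages. All 3 MHCII+CD11c+ libraries were above all others, and the first groups overlapped. The MHCII+CD11c+ mean (409 ± 65.0 CPM) was 2.59-fold that of LYVE1+CX3CR1+ macrophages (158 ± 38.5 CPM). As LYVE1+CX3CR1+ minus MHCII+CD11c+, the log2 difference was -1.37 ± 0.19 with an edgeR adjusted p of 2.09e-05. Compared with MHCII+CD11c- macrophages (203 ± 22.7 CPM) it was 2.01-fold higher, a log2 difference of 1.01 ± 0.19 with an edgeR adjusted p of 0.0013. After IC the levels were 157, 185 and 182 CPM, 229.7, 201 and 295 CPM, and 330.0 and 384 CPM in the same order of subsets. The MHCII+CD11c+ level was then still 2.04-fold that of LYVE1+CX3CR1+ macrophages (log2 difference LYVE1+CX3CR1+ minus MHCII+CD11c+ of -1.03 ± 0.21, edgeR adjusted p 0.00185). The difference from MHCII+CD11c- macrophages, 0.56 ± 0.21 on the log2 scale, did not pass (edgeR adjusted p 0.176). Without MHCII+CD11c+ IC replicate 2 the former call was lost, with a log2 difference of -0.91 and an edgeR adjusted p of 0.0515.

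Csf2rb, the common beta chain, had the largest fitted difference of the 6 genes between control subsets. Control levels were 66.9, 38.4 and 62.4 CPM in LYVE1+CX3CR1+, 176, 146 and 146 CPM in MHCII+CD11c- and 448, 400.1 and 501 CPM in MHCII+CD11c+ macrophages. The 3 groups did not overlap. MHCII+CD11c+ macrophages (450 ± 50.5 CPM) held 8.01-fold the level of LYVE1+CX3CR1+ macrophages (55.9 ± 15.3 CPM), with an edgeR adjusted p of 5.11e-05 and a 95% interval of the log2 difference LYVE1+CX3CR1+ minus MHCII+CD11c+ from -3.82 to -2.18. They held 2.88-fold the level of MHCII+CD11c- macrophages (156 ± 17.4 CPM), with a log2 difference of 1.53 ± 0.37 and an edgeR adjusted p of 0.0148. The step from LYVE1+CX3CR1+ to MHCII+CD11c- controls (log2 difference -1.48 ± 0.37) narrowly missed the threshold at an edgeR adjusted p of 0.0604. It passed in 8 of 17 alternative analyses and failed in the rest, with adjusted p-values from 4.26e-05 to 0.254. The 7 conventional dendritic cell markers, of cells that also express the GM-CSF receptor, summed to 220.1 to 576 CPM in MHCII+CD11c+, 92.6 to 225 CPM in MHCII+CD11c- and 19.5 to 23.7 CPM in LYVE1+CX3CR1+ controls. At most 1 of the 7 was at 0 in the MHCII+CD11c+ controls, and 1 to 4 were at 0 in the LYVE1+CX3CR1+ controls. Their part in the Csf2ra and Csf2rb differences was not tested.

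After IC, Csf2rb stood at 91.3, 46.3 and 18.3 CPM in LYVE1+CX3CR1+ macrophages, the last of these from 44 counts in the smallest library. It was 125, 137 and 129 CPM in MHCII+CD11c- and 422 and 546 CPM in MHCII+CD11c+ macrophages, again without overlap. The log2 difference LYVE1+CX3CR1+ minus MHCII+CD11c+ was -3.21 ± 0.41 (9.24-fold) with an edgeR adjusted p of 9.12e-05, and that of MHCII+CD11c+ minus MHCII+CD11c- was 1.89 ± 0.40 (3.71-fold) with an edgeR adjusted p of 0.0112. The difference between LYVE1+CX3CR1+ and MHCII+CD11c- macrophages was -1.32 ± 0.37 with an edgeR adjusted p of 0.0516, and passed in 8 of 17 alternatives. With the counts of Csf2rb and Csf2rb2 summed, MHCII+CD11c+ and MHCII+CD11c- macrophages differed by 1.12 in controls (edgeR adjusted p 0.113) and by 1.57 after IC (edgeR adjusted p 0.0666) on the log2 scale, and neither passed. The call also failed in controls without MHCII+CD11c- replicate 3 (edgeR adjusted p 0.0642). After IC it failed without MHCII+CD11c- replicate 3 (log2 difference 1.88, edgeR adjusted p 0.0534) and without MHCII+CD11c+ replicate 2 (log2 difference 1.71, edgeR adjusted p 0.206).

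**Figure D1:**
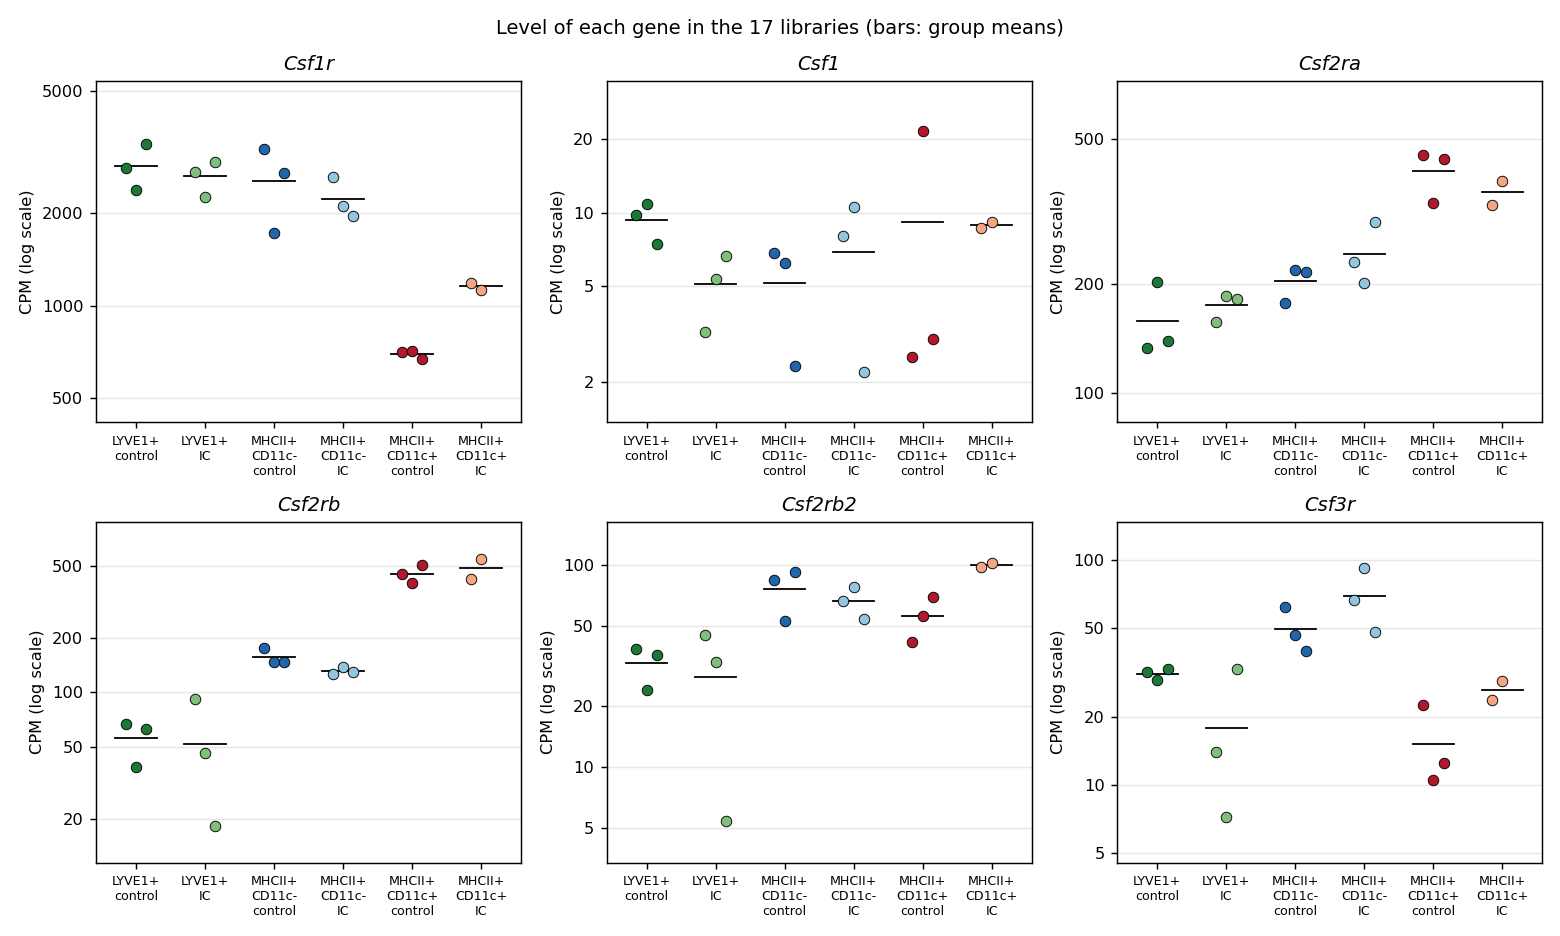
Level of each of the 6 genes in CPM on a log axis, with 1 point per library in each of the 6 groups and a bar at the group mean. The MHCII+CD11c+ libraries lie below all others for Csf1r and above all others for Csf2ra and Csf2rb, Csf1 stays at or under 21.7 CPM, and the MHCII+CD11c- libraries lie highest for Csf3r.

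Csf2rb2, the IL-3-specific beta chain, was not called between any control subsets, and after IC its levels had the same order as those of Csf2rb. Its control levels were 38.6, 24.1 and 35.9 CPM in LYVE1+CX3CR1+, 84.0, 53.0 and 92.6 CPM in MHCII+CD11c- and 41.9, 56.3 and 69.6 CPM in MHCII+CD11c+ macrophages, and the last of these groups overlapped the MHCII+CD11c- libraries. After IC the levels were 45.1, 33.4 and 5.39 CPM, 66.7, 77.9 and 54.2 CPM, and 98.0 and 103 CPM in the same order, with the MHCII+CD11c+ libraries above all others. Only the difference between LYVE1+CX3CR1+ and MHCII+CD11c+ macrophages passed after IC (log2 difference -1.82 ± 0.49, 3.54-fold, edgeR adjusted p 0.0207). It failed in 4 of 15 alternatives. Among these were the fits without MHCII+CD11c+ IC replicate 1 (log2 difference -1.86, edgeR adjusted p 0.094) and without replicate 2 (log2 difference -1.79, edgeR adjusted p 0.145).

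The balance between the copies was therefore compared as the share of Csf2rb2 in the counts of both genes, a ratio within a library that its depth does not shift. In MHCII+CD11c+ controls the share was 8.55%, 12.3% and 12.2% (of 2304, 2457 and 1509 counts), and after IC it was 18.8% and 15.8% (of 3541 and 3538 counts). In the 12 libraries of the other subsets it lay between 22.8% and 41.9%, so no library of another subset reached the MHCII+CD11c+ range. The lowest of these, LYVE1+CX3CR1+ IC replicate 3, rested on 13 of 57 counts, with a 95% Wilson interval of 13.8% to 35.2% that covers counting error only. Averaged over both treatments, MHCII+CD11c+ macrophages were 18.9 percentage points below MHCII+CD11c- macrophages. The difference LYVE1+CX3CR1+ minus MHCII+CD11c+ was 20.7 points, and LYVE1+CX3CR1+ minus MHCII+CD11c- macrophages 1.83 points. The share was chosen after its values were seen, so these differences are given with no test. The MHCII+CD11c+ libraries after IC lay above the 3 controls of that subset, a difference that was not tested.

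**Figure D2:**
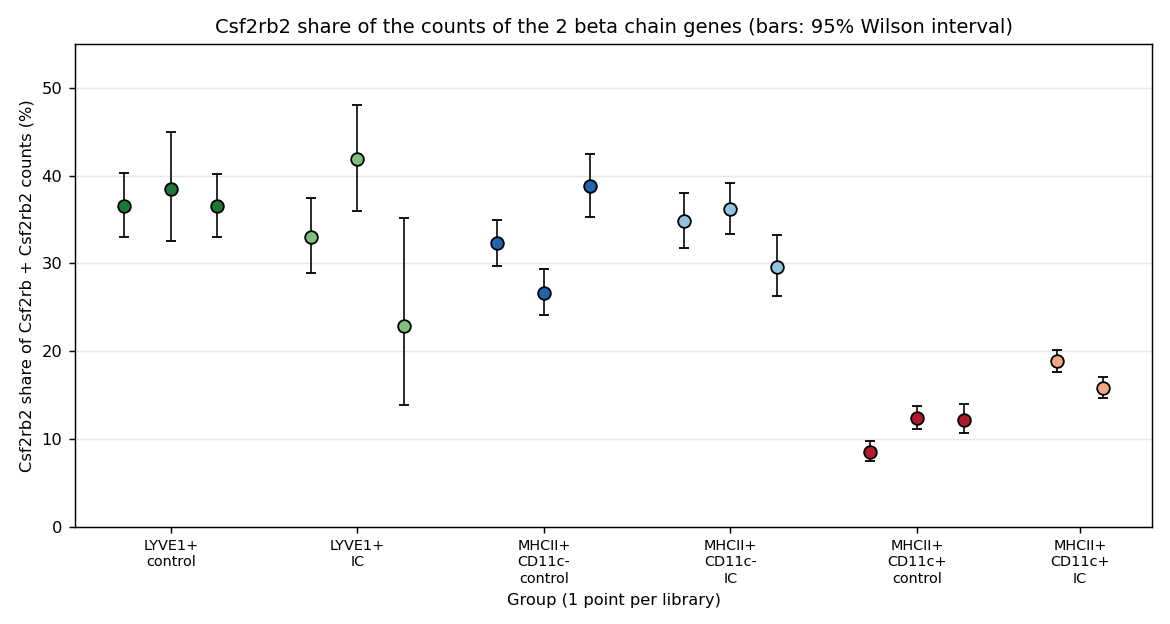
Share of Csf2rb2 in the summed counts of Csf2rb and Csf2rb2, in percent, with 1 point per library and bars for the 95% Wilson interval. The MHCII+CD11c+ libraries lie between 8.55% and 18.8% and those of the other subsets between 22.8% and 41.9%.

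Csf3r, the G-CSF receptor, had its highest levels in MHCII+CD11c- macrophages, though not every difference from them passed. It lies at chr4:126024550-126044440 on the plus strand. Control levels were 31.7, 29.2 and 32.8 CPM in LYVE1+CX3CR1+, 62.1, 46.5 and 39.5 CPM in MHCII+CD11c- and 22.8, 10.6 and 12.5 CPM in MHCII+CD11c+ macrophages, and the 3 groups did not overlap. The MHCII+CD11c+ level (15.3 ± 6.55 CPM) was below that of MHCII+CD11c- macrophages (49.3 ± 11.6 CPM) by 3.22-fold, with a log2 difference of -1.69 ± 0.41 and an edgeR adjusted p of 0.00862. Without MHCII+CD11c- control replicate 1 the log2 difference was -1.45 with an edgeR adjusted p of 0.0644. The difference of LYVE1+CX3CR1+ from MHCII+CD11c+ controls (1.03 ± 0.40) had an edgeR adjusted p of 0.092. That of LYVE1+CX3CR1+ from MHCII+CD11c- controls (-0.66 ± 0.39) had an edgeR adjusted p of 0.659 and was called in 0 of 17 alternatives. Since Csf3r is abundant in neutrophils, their markers were read beside it. The 10 neutrophil markers summed to 579, 91.6 and 306 CPM in the MHCII+CD11c+ controls, the group in which Csf3r was lowest, and ranked these 3 libraries in the same order as Csf3r. In MHCII+CD11c- controls they summed to 326, 107 and 14.4 CPM, again in the same order as Csf3r. In the LYVE1+CX3CR1+ controls they summed to between 1.10 and 9.07 CPM, with 3 to 7 of the 10 at 0, while Csf3r averaged 31.2 ± 1.84 CPM there. In these controls, and in every group after IC, the libraries did not rank in the same order for the neutrophil markers and for Csf3r. With so few libraries in a group, such orders can match or differ by chance. The part of neutrophil RNA in the Csf3r differences was not tested.

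After IC, Csf3r was 14.0, 7.24 and 32.8 CPM in LYVE1+CX3CR1+, 66.7, 92.5 and 47.9 CPM in MHCII+CD11c- and 23.9 and 29.1 CPM in MHCII+CD11c+ macrophages. The MHCII+CD11c- libraries were again above all others, and their neutrophil markers then summed to between 2.00 and 22.9 CPM. LYVE1+CX3CR1+ macrophages lay 3.89-fold below MHCII+CD11c- macrophages, with a log2 difference of -1.96 ± 0.41 and an edgeR adjusted p of 0.00507. This call was lost in 1 of 17 alternatives, the fit with only these groups (edgeR adjusted p 0.0535). MHCII+CD11c+ minus MHCII+CD11c- macrophages gave -1.38 ± 0.45 on the log2 scale with an edgeR adjusted p of 0.0957.

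**Figure D3:**
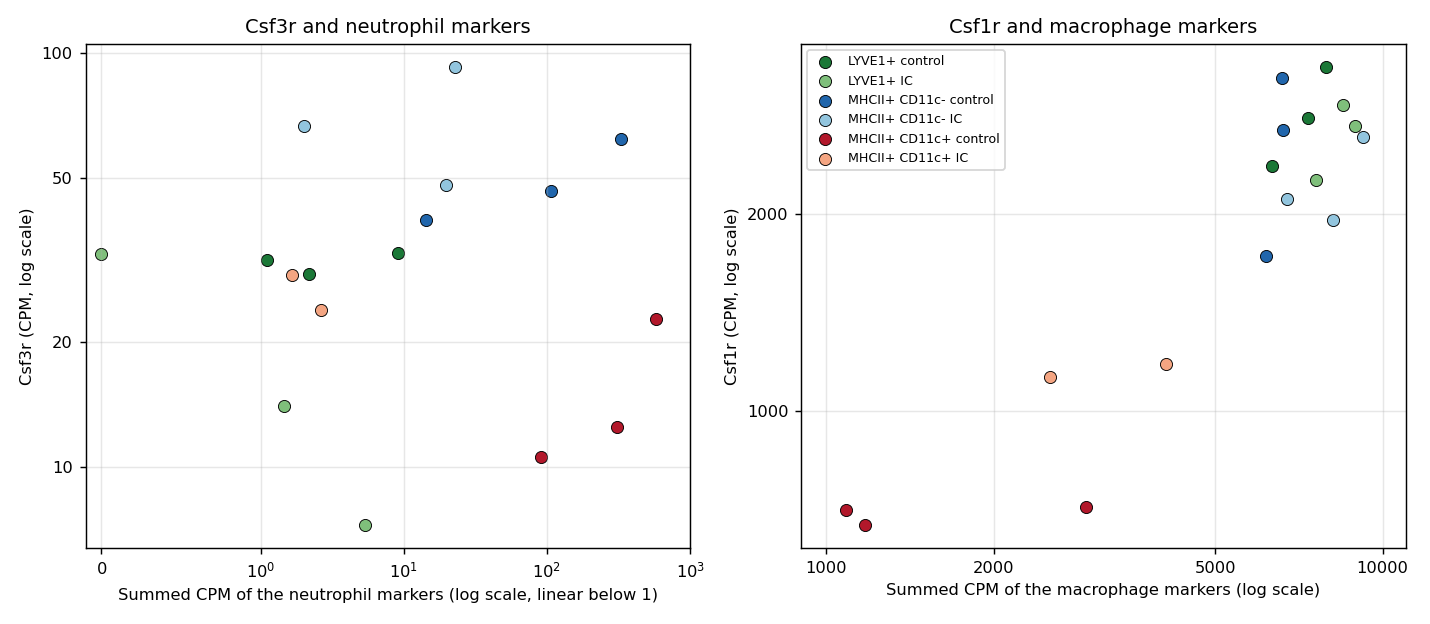
Left, Csf3r (CPM, log axis) against the summed CPM of 10 neutrophil markers (log axis, linear below 1). Right, Csf1r against the summed CPM of 7 macrophage markers (both axes log), with 1 point per library coloured by group. The MHCII+CD11c+ controls combine neutrophil sums of 91.6 to 579 CPM with Csf3r at or under 22.8 CPM, and they lie lowest for Csf1r, while their macrophage marker sums of 1087 to 2925 CPM overlap those after IC.

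Set against all genes tested, edgeR called 0 of the 6 genes in the LYVE1+CX3CR1+ against the MHCII+CD11c- controls, where it called 1.56% of all genes. At an unadjusted p under 0.05 there were 2 (Csf2rb and Csf2rb2, against 10.2% of all genes), and DESeq2 called 1 (492 of 13968 genes in all) and limma voom 2 (977 of 15272). For 4 of 6 the libraries did not overlap, as for 21.6% of all genes. In the LYVE1+CX3CR1+ against the MHCII+CD11c+ controls 3 of 6 were called (15.2% of all genes), 1 of them higher (7.83%) and 2 lower (7.40%) in LYVE1+CX3CR1+ macrophages. Unadjusted, 4 passed (26.6%), and 5 did not overlap (37.7%). The MHCII+CD11c+ against the MHCII+CD11c- controls gave 4 of 6 (8.66%), 2 of them higher (3.67%) and 2 lower (4.99%) in MHCII+CD11c+ macrophages, while 4 passed unadjusted (21.4%) and 4 did not overlap (27.4%).

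After IC, 1 of 6 was called for LYVE1+CX3CR1+ against MHCII+CD11c- macrophages, where it was lower (5.54% of all genes called, 4.79% lower), 4 passed unadjusted (21.7%) and 4 did not overlap (21.9%). LYVE1+CX3CR1+ against MHCII+CD11c+ macrophages gave 4 of 6 (11.9%), 1 of them higher (3.52%) and 3 lower (8.42%), with 4 passing unadjusted (25.8%) and 5 not overlapping (40.9%). MHCII+CD11c+ against MHCII+CD11c- macrophages gave 2 of 6 (4.03%), 1 of them higher (2.29%) and 1 lower (1.75%), with 4 passing unadjusted (14.0%) and 5 not overlapping (36.6%). The 3 comparisons of a treatment share their groups and are not independent of each other.

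To compare the genes with each other, levels were divided by the length of each gene's merged exons in kilobases. On this scale Csf1r was first in 5 of the 6 groups and Csf1 last in all of them. Csf1r stood in LYVE1+CX3CR1+ controls at 493 ± 85.6 CPM per kb, followed by Csf2ra at 55.1 ± 13.4. Csf3r at 8.65 ± 0.51, Csf2rb at 7.68 ± 2.11 and Csf2rb2 at 6.93 ± 1.63 CPM per kb did not differ beyond their spread, and Csf1 came last at 1.77 ± 0.33. In MHCII+CD11c+ controls Csf2ra at 142 ± 22.6 and Csf1r at 121 ± 4.05 CPM per kb lay within their spread of each other, above Csf2rb at 61.8 ± 6.94. MHCII+CD11c- controls had Csf1r at 442 ± 132, Csf2ra at 70.9 ± 7.92, Csf2rb at 21.4 ± 2.39, Csf2rb2 at 16.2 ± 4.39 and Csf3r at 13.7 ± 3.21 CPM per kb. The ratio of Csf1r to Csf2rb per kb was 1.68 to 3.53 in the 5 MHCII+CD11c+ libraries and at least 14.9 in each of the other 12. These levels depend on the exon model, since the files do not say which transcripts were present. Per kb of the longest transcript, Csf2rb in LYVE1+CX3CR1+ controls averaged 11.4 CPM, above Csf3r at 8.97 and Csf2rb2 at 6.93 CPM. In MHCII+CD11c- controls Csf2rb then averaged 31.9 and Csf2rb2 16.2 CPM per kb.

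The change 8 hours after IC was then tested within each subset. None of the 6 genes was called by edgeR in LYVE1+CX3CR1+ (0.963% of all genes called), MHCII+CD11c- (0.701%) or MHCII+CD11c+ macrophages (0.216%), and none for the mean of the 3 changes (3.35%). At an unadjusted p under 0.05 the counts were 0, 0, 1 and 0, where 14.1%, 9.99%, 5.21% and 17.7% of all genes passed, and DESeq2 and limma voom also called 0 in each. The libraries did not overlap for 1 gene in LYVE1+CX3CR1+ (Csf1; 21.6% of all genes), 1 in MHCII+CD11c- (Csf2rb; 17.2%) and 3 in MHCII+CD11c+ macrophages (Csf1r, Csf2rb2 and Csf3r; 23.1%). Csf1r in MHCII+CD11c+ macrophages was the 1 gene past the unadjusted threshold. Its level was 1.66-fold that of controls (1154 ± 38.1, n = 2, against 696 ± 23.4 CPM, n = 3), a log2 change of 0.73 ± 0.21 with an edgeR adjusted p of 0.28 and 0.0949 to 1 over 16 alternatives. In the other subsets the intervals of the log2 change of Csf1r ran from -0.49 to 0.28 (LYVE1+CX3CR1+) and from -0.58 to 0.19 (MHCII+CD11c-). The summed macrophage markers of MHCII+CD11c+ macrophages also stood higher after IC (2522 and 4087 CPM against 1087 to 2925 CPM), with overlap, and their part was not tested. Csf2rb2 in MHCII+CD11c+ macrophages was 1.80-fold that of controls, without overlap, but at a log2 change of 0.85 ± 0.48 it did not pass (edgeR adjusted p 1). For Csf2ra the intervals ran from -0.25 to 0.54, from -0.15 to 0.65 and from -0.64 to 0.25, and for Csf2rb from -0.88 to 0.69, from -1.03 to 0.51 and from -0.74 to 0.95, in the LYVE1+CX3CR1+, the MHCII+CD11c- and the MHCII+CD11c+ subset respectively. Csf3r gave log2 changes of -0.81 ± 0.40, 0.48 ± 0.39 and 0.79 ± 0.44 in that order, with edgeR adjusted p-values of 0.37, 0.786 and 1. The neutrophil markers of MHCII+CD11c+ macrophages summed to 1.65 and 2.64 CPM after IC, below all 3 of their controls.

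Whether the IC change differed between subsets was tested as an interaction. None of the 6 genes passed for LYVE1+CX3CR1+ against MHCII+CD11c- (0.0262% of all genes), LYVE1+CX3CR1+ against MHCII+CD11c+ (0.0327%) or MHCII+CD11c+ against MHCII+CD11c- macrophages (0%) by edgeR, DESeq2 or limma voom. The counts at an unadjusted p under 0.05 were 1, 2 and 1, against 7.54%, 8.02% and 3.25% of all genes. These were Csf3r in the first (-1.30 ± 0.56 on the log2 scale), Csf1r (-0.84 ± 0.28) and Csf3r (-1.60 ± 0.60) in the second and Csf1r (0.92 ± 0.28) in the third, with edgeR adjusted p-values of 0.606, 0.369, 0.452 and 1.

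**Figure D4:**
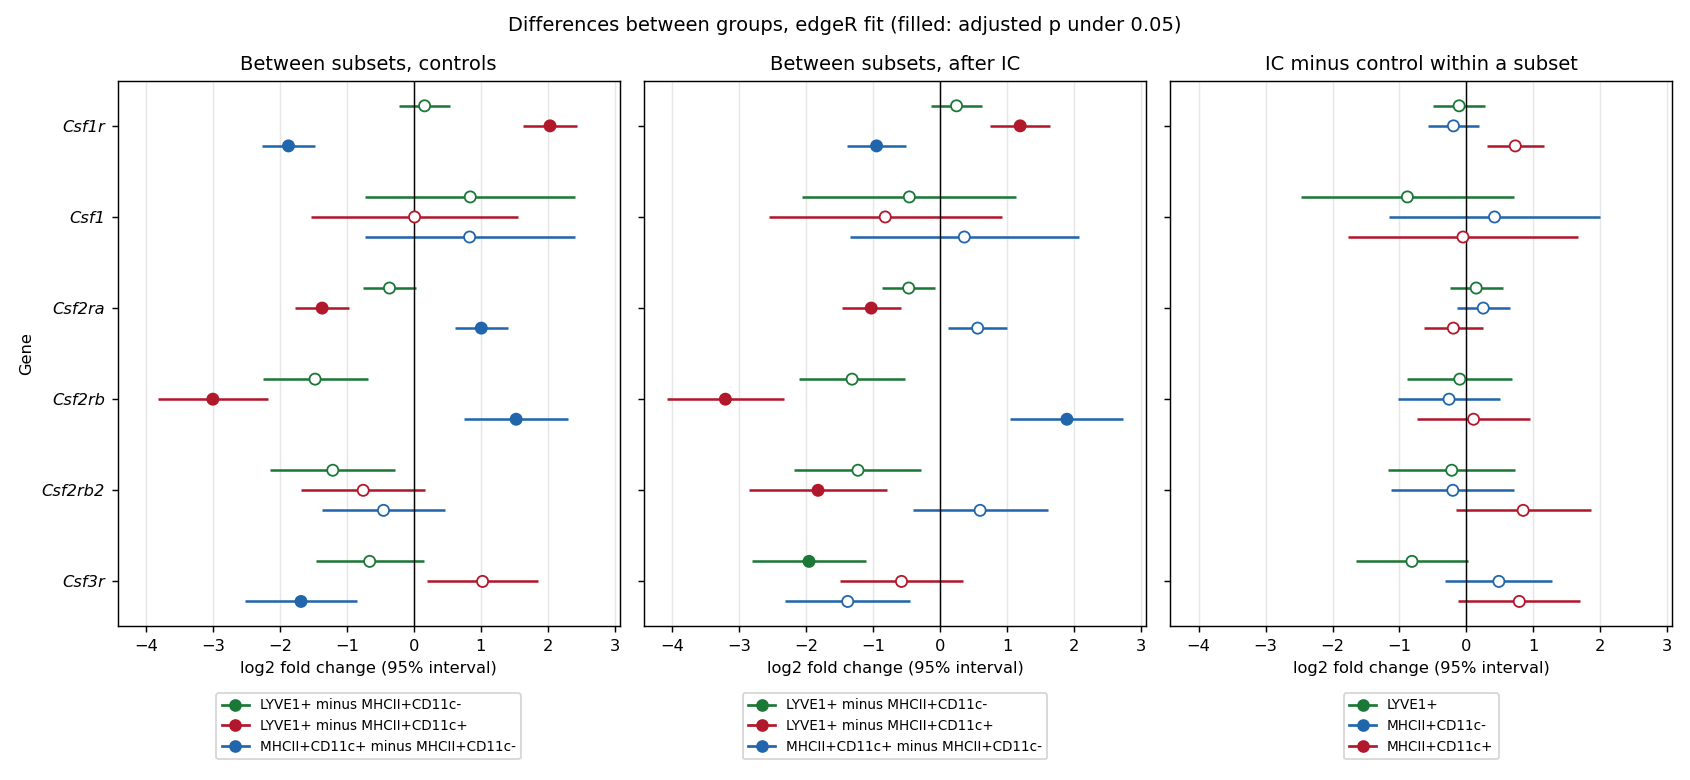
Log2 fold changes of the 6 genes with 95% intervals between subsets in controls (left), between subsets after IC (middle) and for IC minus control within each subset (right), with filled points where the edgeR adjusted p is under 0.05. The filled points are all in the comparisons between subsets, and every interval for IC against control spans 0 except that of Csf1r in MHCII+CD11c+ macrophages (0.30 to 1.16).

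The other ligands and receptors of the family were few. Of 11 listed, 8 were in the table and 6 passed the filter. In controls, Flt3, the receptor for FLT3 ligand found on dendritic cells, was called lower in LYVE1+CX3CR1+ than in either MHCII+ subset, at 0.285 ± 0.272 against 13.6 ± 6.46 and 36.8 ± 19.2 CPM (MHCII+CD11c- and MHCII+CD11c+). Kitl, which encodes the KIT ligand, was called lower in MHCII+CD11c+ controls (14.2 ± 0.601 CPM) than in MHCII+CD11c- (59.4 ± 18.5 CPM) and LYVE1+CX3CR1+ controls (48.8 ± 13.9 CPM). Il34, the other ligand of CSF1R, did not pass the filter and averaged at most 1.5 CPM in any group. Csf3 averaged at most 2.3 CPM.

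Among 21 genes of signalling below CSF1R and the common beta chain, 7 differed between the LYVE1+CX3CR1+ and the MHCII+CD11c+ controls (in the former 2 stood higher and 5 lower), where 15.2% of all genes were called. In the MHCII+CD11c+ against the MHCII+CD11c- controls 3 differed (2 of them higher, 1 lower), where 8.66% of all genes were called, and read against that share 3 of 21 is little above it. Jak2, the kinase bound to the common beta chain, averaged 218 ± 21.9 CPM in MHCII+CD11c+ controls against 76.2 ± 3.62 CPM in MHCII+CD11c- and 69.1 ± 8.81 CPM in LYVE1+CX3CR1+ controls. Its log2 difference between MHCII+CD11c+ and MHCII+CD11c- controls was 1.51 ± 0.22 with an edgeR adjusted p of 8.26e-05. Plcg2, a phospholipase of this pathway, was higher in the same comparison by 0.97 ± 0.18 (edgeR adjusted p 0.00124). The median log2 difference of the 21 genes between MHCII+CD11c+ and MHCII+CD11c- controls was 0.13, against -0.03 over all genes.

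Of 16 negative regulators, in the MHCII+CD11c+ against the MHCII+CD11c- controls, 4 were higher (Cish, Ptpn11, Lgals3 and Dusp5), 2 were lower (Spred1 and Dusp6) and 10 did not pass (8.66% of all genes called). Dusp6, a phosphatase that acts on ERK, averaged 30.8 ± 0.617 CPM in MHCII+CD11c+ and 120.5 ± 45.7 CPM in MHCII+CD11c- controls. Dusp5, another ERK phosphatase, averaged 199 ± 20.03 and 59.4 ± 16.5 CPM in these groups. LYVE1+CX3CR1+ against MHCII+CD11c+ controls gave 4 higher and 4 lower of 16, where 7.83% of all genes were called higher and 7.40% lower.

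Of the 12 genes known to rise through STAT5 or after GM-CSF, 4 were higher and 0 lower in the MHCII+CD11c+ than in the MHCII+CD11c- controls. That comparison called 3.67% of all genes higher and 4.99% lower. The median log2 difference of the 12 genes was 1.12, against -0.03 over all genes. The 4 higher genes were Cish, a STAT5-induced inhibitor of cytokine receptors, Pim1, a kinase induced by cytokines, the chemokine Ccl17 and the transcription factor Irf4. Cish averaged 61.5 ± 8.27 CPM in MHCII+CD11c+, 9.19 ± 6.59 CPM in MHCII+CD11c- and 2.45 ± 0.796 CPM in LYVE1+CX3CR1+ controls. Pim1 averaged 649 ± 133, 270.5 ± 39.1 and 112 ± 7.15 CPM in the same order. After IC the same 4 genes were called higher in the MHCII+CD11c+ than in the MHCII+CD11c- macrophages (2.29% of all genes). Again 0 were lower (1.75%). Between LYVE1+CX3CR1+ and MHCII+CD11c+ controls 1 was higher (Bcl2l1) and 7 were lower in LYVE1+CX3CR1+ macrophages (Cish, Pim1, Ccnd1, Ccl17, Irf4, Pparg and Cd274). Of all genes, 7.83% were called higher and 7.40% lower in that comparison. For the mean IC change 2 rose (Bcl2l1 and Cd274) and 2 fell (Cish and Irf4), where 3.35% of all genes were called. Irf4, Ccl17 and Cd274 are also expressed by dendritic cells, whose markers differed between the subsets as given above, and that part was not tested. STAT5 activity itself was not measured.

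**Figure D5:**
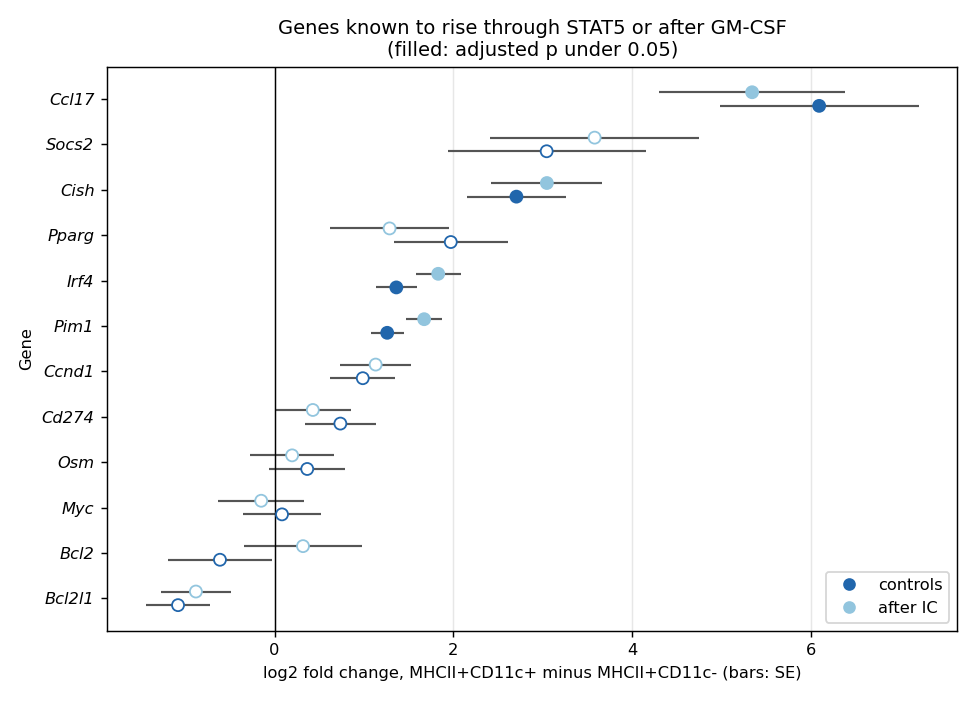
Log2 difference MHCII+CD11c+ minus MHCII+CD11c- macrophages of 12 genes known to rise through STAT5 or after GM-CSF, in controls and after IC, with bars for the SE and filled points where the edgeR adjusted p is under 0.05. Cish, Pim1, Ccl17 and Irf4 are filled at both treatments, and Bcl2l1 lies at -1.08 in controls without passing.

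Of 13 transcription factors known to bind the Csf1r locus, 0 were higher and 4 were lower in the MHCII+CD11c+ than in the MHCII+CD11c- controls, Irf8, Maf and Jun among them, with a median of -0.40. That comparison called 3.67% of all genes higher and 4.99% lower. Maf averaged 58.95 ± 6.56 CPM in MHCII+CD11c+, 547 ± 212 CPM in MHCII+CD11c- and 688 ± 29.3 CPM in LYVE1+CX3CR1+ controls. After IC, Maf rose to 154 ± 15.5 CPM in MHCII+CD11c+ macrophages (log2 change 1.38 ± 0.23, edgeR adjusted p 0.00965). Spi1, which encodes PU.1, differed in none of these comparisons and averaged 195 to 291 CPM over the 6 groups. After IC, 1 of the 13 was called higher and 1 lower in LYVE1+CX3CR1+ macrophages, and 1 higher and 0 lower in each MHCII+ subset. For the mean change 5 were called higher and 2 lower. These tests called 0.963%, 0.701% and 0.216% of all genes in the LYVE1+CX3CR1+, the MHCII+CD11c- and the MHCII+CD11c+ subset, and 3.35% for the mean change. Cebpb rose in LYVE1+CX3CR1+ (log2 change 0.79 ± 0.18, edgeR adjusted p 0.0282) and MHCII+CD11c- macrophages (1.17 ± 0.18, edgeR adjusted p 0.00111). Egr2 fell in LYVE1+CX3CR1+ macrophages (-1.41 ± 0.26, edgeR adjusted p 0.0093), and Egr2 (-0.93 ± 0.15, edgeR adjusted p 0.00105) and Runx1 (-0.51 ± 0.11, edgeR adjusted p 0.00856) fell for the mean change.

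Of 4 genes of receptor shedding, Rhbdf2, a partner of the sheddase ADAM17, was called in LYVE1+CX3CR1+ against MHCII+CD11c+ controls (158 ± 7.39 against 69.2 ± 34.2 CPM). None was called between MHCII+CD11c+ and MHCII+CD11c- controls. The shares of all genes called were 15.2% and 8.66%. Of 7 survival and growth genes, 2 were higher in the MHCII+CD11c+ than in the MHCII+CD11c- controls (3.67% of all genes). The 2 were Bcl2a1d (134 ± 27.9 against 23.5 ± 14.7 CPM) and the proliferation marker Mki67 (418 ± 102 against 156 ± 75.9 CPM).

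Over the 17 libraries, the genes whose log2 levels ran closest to each member were named by Pearson's r, as a description of libraries that share subsets, treatments and depth. Csf1r ran closest to Tgfbr2 (r = 0.975), Maf (0.968) and Stard8 (0.968). Csf2rb ran closest to Itgax (0.977), Btg1 (0.974) and Cd52 (0.964), and Csf2ra to the ribosomal genes Rpl6 (0.959) and Rplp0 (0.954) and to Rack1 (0.938). For Csf2rb2 they were Prdm1 (0.931), Gbp9 (0.904) and Lmnb2 (0.904), and for Csf3r they were Cd4 (0.899), Marcksl1 (0.880) and Agrn (0.866). Csf1 had Crls1 (0.823), Tmem159 (0.822) and Tmem204 (0.795). Between members, r was -0.91 for Csf1r with Csf2ra, -0.79 for Csf1r with Csf2rb, 0.80 for Csf2ra with Csf2rb and 0.77 for Csf2rb with Csf2rb2.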

How the data were processed

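RNA was taken from synovial macrophages of Fcgr2b-KO mice sorted into 3 subsets, and stranded libraries were made from small amounts of total RNA. Per the labels, the authors' notes name Trim Galore, FastQC, HISAT2 with mm10 and featureCounts; versions, annotation, strand setting and the treatment of reads with several matches are not given in the sources used here. The deposited values were raw counts per gene, and the combined table matched the single files in all 17 libraries. A column of the combined table that names no sample (1 in all) was left out. IAIE, CD11c and Lyve1 in the labels name the MHCII+CD11c-, MHCII+CD11c+ and LYVE1+CX3CR1+ subsets.

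Counts were analysed with edgeR 4.0.16 in R 4.3.3 (TMM scaling, filterByExpr with a minimum count of 10, 15272 genes, 1 mean per group over 17 libraries, 11 residual degrees of freedom, robust quasi-likelihood F test). P-values were adjusted by Benjamini-Hochberg over all genes of a comparison, and a gene was called at an adjusted p under 0.05. CPM are counts scaled by the TMM library total (CPM in edgeR's sense). Lengths came from GENCODE M21. The scripts were tested on simulated data.

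The 6 genes, the pathway and marker lists and the comparisons were chosen with earlier results of these data known. All 6 genes are described, list genes are named where a sentence turns on them, and the 3 genes of highest Pearson's r on log2 CPM (prior count 2) were named for each member. Alternatives were DESeq2 1.42.0, limma 3.58.1 voom, RLE scaling, other filters, only the groups compared, a replicate block, 1 surrogate variable (sva 3.50.0), equal depth, a gene length trend, the summed beta chains and leaving out each library. Libraries within a group differed by more than sampling noise (chi-square per degree of freedom at least 6.77). Some genes of the lists are not reported here.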

Additional observations from a re-analysis of the deposited data

How the results depend on the processing

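Of 27 differences of the 6 genes with an unadjusted p under 0.05, none turned its direction in 468 refits, and 425 of these stayed on the same side of the threshold, 14 lost the call and 29 gained it. Csf1r, Csf2ra and Csf2rb between the LYVE1+CX3CR1+ and the MHCII+CD11c+ controls, and Csf1r and Csf2ra between MHCII+CD11c+ and MHCII+CD11c- controls, were called in all 17 alternatives. The other 51 differences changed sign in 66 of 982 refits, never past the threshold. The cause of the following moves was not tested. Genes called between the LYVE1+CX3CR1+ and the MHCII+CD11c- controls numbered 1 of 6 with DESeq2, RLE scaling, minimum count 30, equal depth or the replicate block and 2 with voom, only the groups compared or 1 surrogate variable, against 0. Between the LYVE1+CX3CR1+ and the MHCII+CD11c+ controls there were 5 with 1 surrogate variable, against 3. After IC, LYVE1+CX3CR1+ against MHCII+CD11c- macrophages gave 2 with DESeq2, minimum count 30, voom or the length trend removed, 3 with the replicate block or 1 surrogate variable and 0 with only the groups compared, against 1, and 1 to 3 with a library left out. LYVE1+CX3CR1+ against MHCII+CD11c+ macrophages after IC gave 2 to 5 with a library left out, against 4, and MHCII+CD11c+ against MHCII+CD11c- macrophages gave 4 with voom, 1 with the beta chains summed and 0 to 2 with a library left out, against 2. Replicate numbers were not used as pairs in the main fit. Same-numbered libraries correlated between -0.15 and 0.29, and in no comparison was every pair over 0.1. Between the MHCII+CD11c+ and the MHCII+CD11c- controls, same-numbered pairs lay at 0.08 to 0.29 and other pairs at -0.15 to 0.05. For IC against control in MHCII+CD11c- macrophages these ranges were -0.05 to 0.08 and -0.13 to 0.20. Whether same-numbered libraries came from the same mice was not tested. The replicate block changed no other count of the 6 genes called. The median of all genes for IC in LYVE1+CX3CR1+ macrophages was -0.14 on the log2 scale with TMM, -0.05 with RLE scaling and -0.02 at equal depth. Genes called over the whole table moved most with tool and library: 238 (96 to 977), 2326 (1591 to 3810) and 1323 (785 to 1948) between the control subsets, 147 (43 to 433), 107 (29 to 288) and 33 (0 to 104) for IC in the LYVE1+CX3CR1+, the MHCII+CD11c- and the MHCII+CD11c+ subset, 511 (198 to 924) for the mean IC change, 846 (270 to 1422), 1824 (666 to 2290) and 616 (145 to 1783) between the subsets after IC and 4 (0 to 38), 5 (3 to 56) and 0 (0 to 21) for the interactions. Per kb of the longest transcript, Csf1r stood at 606 CPM in LYVE1+CX3CR1+ and 148 CPM in MHCII+CD11c+ controls and Csf2ra at 179 CPM in the latter. Depth limits Csf1 most, at 7 to 117 counts a library.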

Other observations

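Osteoclasts arise from macrophage precursors under CSF1, and their marker list held 4 tested genes. Dcstamp, which is needed for the fusion of osteoclast precursors, was called higher in the MHCII+CD11c+ than in the MHCII+CD11c- subset in controls and after IC. It was the 1 gene of the list called in either, where 8.66% and 4.03% of all genes were called. It averaged 96.6 ± 11.5 CPM in MHCII+CD11c+ controls and 44.2 ± 0.042 CPM after IC, against 1.67 ± 0.640 and 1.10 ± 1.91 CPM in MHCII+CD11c- macrophages. Acp5 and Ctsk, which encode the enzymes of resorbing osteoclasts, averaged 1.98 ± 0.759 and 8.78 ± 10.01 CPM in MHCII+CD11c+ controls. Ocstamp averaged 3.24 ± 2.81 CPM there and 7.52 ± 0.248 CPM after IC. The dendritic cell markers also summed to more in MHCII+CD11c+ (220 to 576 CPM) than in most MHCII+CD11c- controls (92.6 to 225 CPM). Their part in the Dcstamp level was not tested.

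Endothelial markers summed to at most 63.7 CPM, mast cell markers to at most 46.2 CPM and T and B cell markers to at most 23.4 CPM in any library. Ly6C monocyte markers summed to 1188, 589 and 921 CPM in the MHCII+CD11c+ controls, beside macrophage marker sums of 1087, 2925 and 1172 CPM in the same libraries. They summed to 343 to 545 CPM in MHCII+CD11c- controls and 465 to 722 CPM in LYVE1+CX3CR1+ controls. Kit, a marker of mast cells and itself a receptor of the CSF1R family, averaged 11.6 ± 1.89 CPM in MHCII+CD11c+ macrophages after IC and 0.451 ± 0.465 CPM in their controls, a difference that did not pass (edgeR adjusted p 0.737). The mast cell list, which includes Kit, also stood higher, at 20.4 and 46.2 CPM after IC against 0.425 to 3.40 CPM in the controls. In the MHCII+CD11c- libraries after IC it summed to 1.11, 32.3 and 2.48 CPM.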
